A study of Mus musculus with 4 samples.

Results

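Protein tyrosine phosphatases and dual-specificity phosphatases lay nearest to 25 of the 5741 BCL6 peaks mapped in mouse adipocyte nuclei, 10 of 1785 in inguinal and 15 of 3956 in perigonadal fat. A peak was taken as a member when the gene named as nearest in its list begins with Ptpn, Ptpr or Dusp, at any distance, with Ptpn1 left out. The nuclei came from C57BL/6 mice of the genotype Adipoq-Cre;Sun1-sfGFP-myc, in which a Cre driven by the adiponectin promoter switches on a nuclear membrane tag in adipocytes. Both depots carried the same alleles and received no treatment named in the labels, and the labels give no age, sex or number of animals. Minced tissue was fixed with disuccinimidyl glutarate for 30 minutes and with 1% formaldehyde for 10 minutes, tagged nuclei were captured on beads against the myc epitope, and their chromatin was immunoprecipitated with a guinea pig polyclonal antibody raised against mouse Bcl6. Each depot had 1 BCL6 library, which gave the peak list, and 1 input library, which was not analysed here. With 1 library per depot no difference between depots could be tested, and a site missing from a list means that no peak was called there.

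Protein tyrosine phosphatases remove phosphate from tyrosine residues and so oppose receptor and cytoplasmic tyrosine kinases, including those that carry the insulin signal in fat cells. Receptor-type members (Ptpr) span the plasma membrane and many resemble adhesion molecules, whereas non-receptor members (Ptpn) act inside the cell. The classical dual-specificity phosphatases (Dusp) switch off MAP kinases by removing phosphate from both the threonine and the tyrosine of the activation loop, and the atypical ones are smaller enzymes with more varied substrates. BCL6 is a zinc finger repressor whose DNA motif resembles that of STAT factors.

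The height of a peak is the score deposited by the authors, which rises with the number of sequenced tags at the site. Every score was a whole multiple of a fixed unit, 0.752 for inguinal and 0.882 for perigonadal peaks, to the precision the files give, and this unit was read as 1 tag. Scores are scaled within each list and give no direction between depots. Intervals on scores are exact Poisson 95% intervals of the tags and those on shares are Wilson 95% intervals, and both cover counting error only. The median peak of the inguinal list rested on 12 tags and that of the perigonadal list on 10 tags.

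Of the 25 member peaks, 1 reached into an annotated promoter and is therefore shown with its sequence. It lay in perigonadal fat at chr2:130450251-130450435 on mm10, with its centre 65 bp after a start of Ptpra, a receptor-type phosphatase that activates Src family kinases. The sequence is the 250 bases before that start at chr2:130450028-130450277, plus strand, from the RefSeq promoter table of GRCm38.p6, with the 27 bases that the peak covers in capitals.
Ptpra promoter: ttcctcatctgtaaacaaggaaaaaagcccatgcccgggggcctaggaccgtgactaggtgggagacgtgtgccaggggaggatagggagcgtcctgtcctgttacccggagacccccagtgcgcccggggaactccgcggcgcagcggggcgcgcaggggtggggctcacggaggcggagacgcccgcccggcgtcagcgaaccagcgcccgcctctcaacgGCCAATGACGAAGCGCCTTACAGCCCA
The score was 9.70, or 11 tags, with an interval of 4.84 to 17.4. These 250 bases contained no TTCNNNGAA, the core that STAT and BCL6 sites share, on either strand, and 68.0% of them were G or C. The peak extends beyond the printed bases into the gene, a stretch that was not searched past the first 50 bases. No inguinal peak was called on this promoter. The inguinal peak given to Ptpra was centred 11.4 kb upstream of the same start, in intron 7 of 23 of the neighbouring gene Vps16, with a score of 8.27 (11 tags).

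A further phosphatase promoter carried a perigonadal peak that the list gives to another gene. The peak at chr11:3895003-3895187 was centred 145 bp before 1 annotated start of Dusp18, an atypical dual-specificity phosphatase, and 160 bp inside the outer edge of that gene, so that it also counts as a peak in the gene body. It lay 31 bp from the start of 4921536K21Rik, to which the list assigns it. It scored 8.82 (10 tags, interval 4.23 to 16.2) and had no inguinal partner. Its central 30 bases, chr11:3895081-3895110 on the plus strand of the same RefSeq table, are shown in capitals as part of the peak.
Peak centre at Dusp18: AAACCATGGTGGAAAGACACGCGGTCGCAG
The second perigonadal peak at Dusp18, which its name makes a member, lay 7.91 kb downstream of the start, past the end of the gene, and was taller with 13.2 (15 tags, interval 7.40 to 21.8). Both Dusp18 peaks were called in perigonadal fat and neither in inguinal fat.

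**Figure D1:**
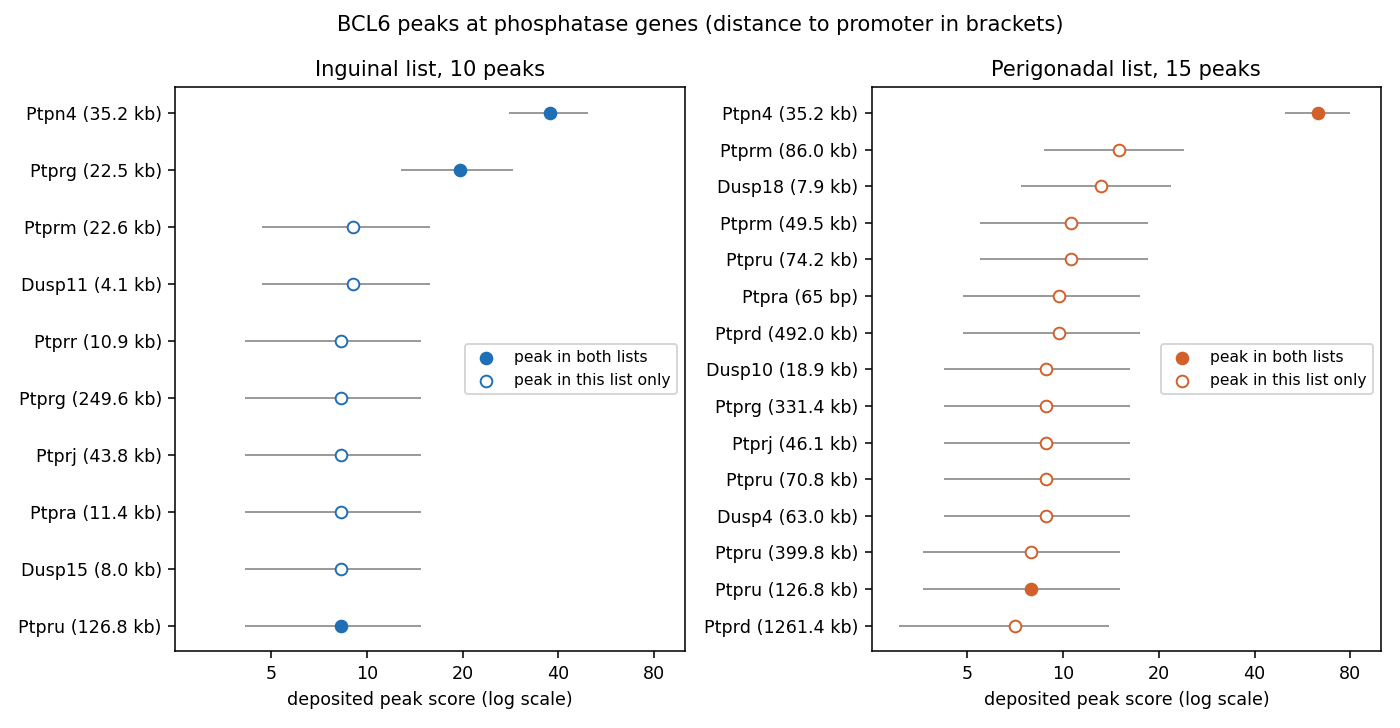
Deposited score of each member peak on a log axis, with its exact Poisson 95% interval, for the 10 inguinal (left) and 15 perigonadal (right) peaks. The Ptpn4 site stands highest in each list, at 37.6 and 63.5, while most other peaks lie between 7.05 and 15.0 with overlapping intervals, and filled points have a partner in the other list.

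The tallest member site of either list lay upstream of Ptpn4, a cytoplasmic phosphatase with FERM and PDZ domains. In inguinal fat it scored 37.6 (50 tags, interval 27.9 to 49.6) and ranked 31 of 1785, at chr1:119872140-119872342. In perigonadal fat it scored 63.5 (72 tags, interval 49.7 to 79.9) and ranked 13 of 3956, at chr1:119872200-119872384. The site is intergenic, 35.2 kb upstream of the Ptpn4 promoter, with the near end of Tmem177 at 35.6 kb on the other side, so both genes are about equally far away. Both lists annotate it within an L1M5 element, an old LINE retrotransposon. It was the second tallest of the 116 inguinal peaks in LINE elements and the tallest of the 267 perigonadal ones, whose median scores were 8.27 and 8.82. Of the peaks in L1M5 elements, this site included, 6 of 10 inguinal and 7 of 8 perigonadal ones were shared. Among all peaks 28.5% and 12.8% were. The centres of the pair were 51 bp apart, against a median of 28.0 bp over all 508 shared pairs, of which 24.2% were at least as far apart. The other 15 non-receptor genes had no peak by name and none in the gene body in either list. Most genes had none: 15.4% of all protein-coding genes had a peak by name in either list. In the gene body 4.11% had an inguinal and 8.2% a perigonadal peak.

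A second site called in both lists lay inside Ptprg, a receptor-type phosphatase with a carbonic anhydrase-like domain outside the cell. In inguinal fat it scored 19.6 (26 tags, interval 12.8 to 28.7) at chr14:12167302-12167504, and in perigonadal fat 13.2 (15 tags, interval 7.40 to 21.8) at chr14:12167302-12167486, with centres 9 bp apart. It lies in intron 13 of 29, about 614 kb from the 5′ promoter and 22.5 kb before an internal one. The inguinal list gives it to that internal promoter of Ptprg, while the perigonadal list gives the same site to 3830406C13Rik, 116.8 kb away. This was 1 of 2 among the 508 shared pairs (0.394%) for which the lists named different genes. Each list held a further, low peak in intron 2 of 29 of Ptprg, at 249.6 kb with 8.27 in inguinal and at 331.4 kb with 8.82 in perigonadal fat, 81.8 kb apart.

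The remaining pair lay beyond the end of Ptpru, an adhesion-type receptor phosphatase of the same subfamily as Ptprm. The site is intergenic, 126.8 kb downstream of the promoter and 56.9 kb past the gene. It scored 8.27 (11 tags) in inguinal fat at chr4:131711422-131711624 and 7.93 (9 tags) in perigonadal fat at chr4:131711395-131711579. The intervals were 4.13 to 14.8 and 3.63 to 15.1. Both peaks lay 1 tag under the median of their lists, at rank 948 of 1785 and 3205 of 3956. Perigonadal fat had 3 further peaks there. The tallest scored 10.6 (12 tags, interval 5.47 to 18.5) at chr4:131763985-131764169, 74.2 kb from the promoter. The others scored 8.82 at the transcription end site and 7.93 at 399.8 kb from the promoter. The last of these lies 330.0 kb from the nearest end of Ptpru and is tied to it only by the nearest-promoter rule.

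Sharing was near that of all peaks. Of the member peaks 3 of 10 inguinal ones had a perigonadal partner, 30.0% (interval 10.8 to 60.3%), beside 28.5% of the inguinal list. Of the perigonadal ones 2 of 15 had an inguinal partner, 13.3% (3.74 to 37.9%), beside 12.8%. The third partner, that of the Ptprg site, was not counted among the 15 because the perigonadal list does not name Ptprg there.

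Ptprm, which encodes a homophilic cell adhesion phosphatase, had the largest group of peaks. By name the perigonadal list gives it peaks in intron 1 of 30, with 15.0 (17 tags, interval 8.73 to 24.0) at chr17:67268333-67268517 and 10.6 (12 tags, interval 5.47 to 18.5) at chr17:67304864-67305048. These lie 86.0 and 49.5 kb after the promoter. A further 6 perigonadal peaks lay in later introns of the gene, 5 of them given to the microRNA gene Mir5709 and 1 to Themis3. They scored 13.2 in intron 14, 11.5 in introns 2 and 3, 10.6 in intron 13, and 8.82 in introns 2 and 21. In inguinal fat no peak lay in the gene body, which a count of 0 does not separate from peaks under the calling limit. The inguinal peak given to Ptprm scored 9.03 (12 tags, interval 4.66 to 15.8) at chr17:67376991-67377193, was intergenic and lay 22.6 kb upstream of the promoter, 72.1 kb from the nearest perigonadal peak.

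With 8 peaks in its 687.6 kb, Ptprm held more perigonadal peaks than the body of any other protein-coding gene, the next highest number being 6. This gene was singled out after its values were seen. Its density was 11.6 peaks per Mb (Poisson interval 5.02 to 22.9), beside 2.08 over all protein-coding gene bodies. Of 2429 protein-coding genes of at least 100 kb, 75 including Ptprm were at least as dense. The stretches of 687.6 kb on either side of the gene held 0 perigonadal peaks. All of the 8 were unshared and 4 rested on more than 12 tags, a number that 2 genes including Ptprm reached with such peaks. By density of such peaks, 97 of the 2429 long genes including Ptprm were at least as dense, of 224 that held any.

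**Figure D2:**
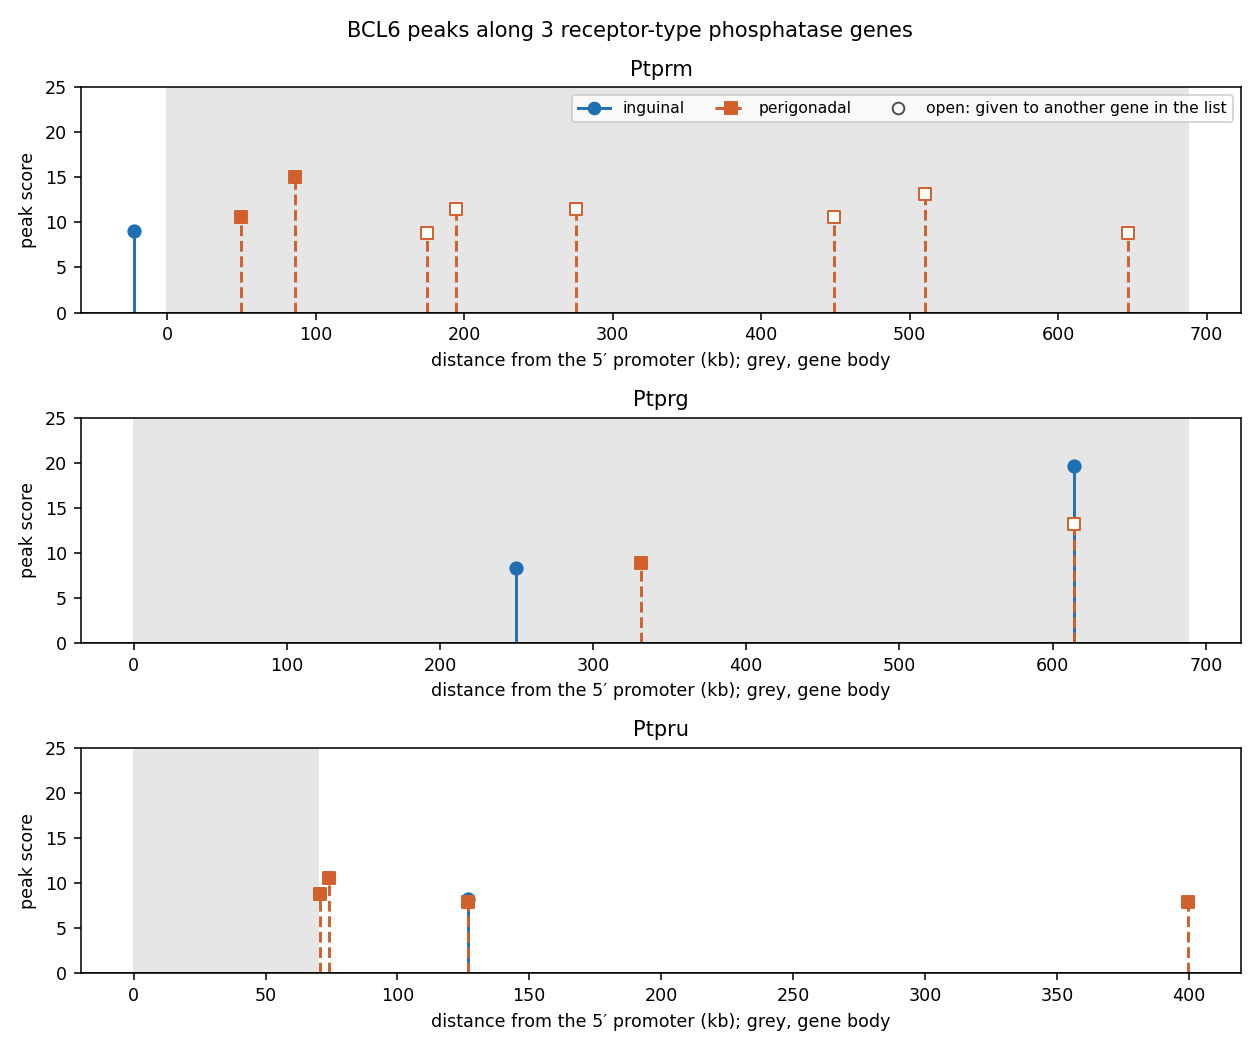
Peak score (vertical axis) against distance from the 5′ promoter in kb (horizontal axis) along Ptprm, Ptprg and Ptpru, with the gene body in grey, circles and solid lines for inguinal and squares and dashed lines for perigonadal fat, and open symbols for peaks that the list gives to another gene. Ptprm holds 8 perigonadal and 0 inguinal peaks in its body, Ptprg a site called in both lists near 614 kb, and all Ptpru peaks lie at or past the end of the gene.

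The other receptor-type peaks were low, from 7.05 to 9.70. Each inguinal member peak at 8.27 rested on 11 tags (interval 4.13 to 14.8) and each perigonadal one at 8.82 on 10 tags (4.23 to 16.2). Ptprj encodes a phosphatase that acts on growth factor receptors, and it had a peak in intron 1 of 23 in each list, with 8.27 in inguinal and 8.82 in perigonadal fat. The peaks were 11.6 kb apart and so did not overlap. Ptprd, a receptor of the LAR family known from synapses, had 2 perigonadal peaks by name. The taller scored 9.70 (11 tags, interval 4.84 to 17.4) at chr4:77719812-77719996, in intron 2 of 39 and 492.0 kb from the promoter, and the lower 7.05 in intron 8, at 1261 kb. Another peak in its intron 11 scored 7.93 and is given to Tmem261. The inguinal list held no peak within 3552.4 kb of the first of these, so that this long gene had perigonadal peaks alone. Ptprr, whose product binds and inactivates ERK kinases, had an inguinal peak of 8.27 in a LINE element 10.9 kb upstream of the promoter and no perigonadal one. Ptpre and Ptprt had peaks in the gene body under other names, with 8.82 in intron 3 of 17 in perigonadal and 8.27 in the last exon, exon 30, in inguinal fat.

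Among the MAP kinase phosphatases 2 of 10 had a perigonadal peak, 20% (5.67 to 51.0%), beside 12.3% of all protein-coding genes, and 0 of 10 an inguinal one (up to 27.8%), beside 6.15%. Dusp10, which acts on JNK and p38 kinases, had a perigonadal peak of 8.82 (10 tags) in intron 2 of 3, at chr1:184053282-184053466, 18.9 kb after its promoter. Dusp4, a nuclear phosphatase of ERK kinases, was named for a peak of the same height that lies 63.0 kb from its promoter inside intron 8 of 26 of Tnks. Dusp1, Dusp2, Dusp5, Dusp6, Dusp7, Dusp8, Dusp9 and Dusp16 had no peak in either list.

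Among the 14 atypical dual-specificity genes, Dusp11 and Dusp15 had an inguinal peak and Dusp18 the perigonadal ones given above. The inguinal peak at Dusp11, whose product removes phosphate from the ends of RNA, scored 9.03 (12 tags, interval 4.66 to 15.8) at chr6:85965676-85965878 and lay in an LTR element 4.11 kb upstream. The one at Dusp15 scored 8.27 (11 tags) and lay in exon 7 of 7, 8.0 kb after the promoter. The atypical counts were thus 2 of 14 inguinal, 14.3% (4.01 to 39.9%), and 1 of 14 perigonadal, 7.14% (1.27 to 31.5%), beside the same 6.15% and 12.3%. In both lists, 0 of 10 MAP kinase phosphatases and 0 of 14 atypical genes had a peak, beside 3.0% of all protein-coding genes. The family genes with a peak in both lists were Ptpn4, Ptpra, Ptprg, Ptprj, Ptprm and Ptpru, and no difference between the classes was tested.

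Over the family, 9 of 61 protein-coding genes were nearest to an inguinal peak, 14.8% (interval 7.96 to 25.7%), beside 6.15% of all 21900 protein-coding genes. In the perigonadal list 10 of 61 were, 16.4% (9.16 to 27.6%), beside 12.3%. In both lists 6 of 61 were, 9.84% (4.59 to 19.8%), beside 3.0%, and in either list 13 of 61, 21.3% (12.9 to 33.1%), beside 15.4%. Of the 6 genes in both lists, 5 span at least 100 kb. The shares for both lists and either list were not set beside those of genes of like length. The 61 include Ptprcap, which associates with a phosphatase but is not one, and its name places it among the 21 receptor-type genes. Whether the other genes all encode active enzymes was not examined. Receptor-type genes made up most of the family genes with a peak, with 6 of 21 in each list, 28.6% (13.8 to 50%), and 5 of 21 in both. Non-receptor genes counted 1 of 16 in each. The receptor-type genes had a median length of 150.9 kb, though not all of them span 100 kb. Among all protein-coding genes of at least 100 kb, 16.6% were nearest to an inguinal and 32.6% to a perigonadal peak. The receptor-type share of 28.6% lay above the first and below the second, and neither difference was tested.

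Family genes with peaks had a higher median length than those without, as did protein-coding genes as a whole. The median length of the 9 inguinal genes was 150.9 kb and that of the other 52 family genes 46.2 kb, beside 47.4 and 16.1 kb over all protein-coding genes. For the 10 perigonadal genes it was 127.5 kb, against 51.2 kb for the rest of the family, beside 43.2 and 15.4 kb. Not all were long: Dusp18, Dusp15, Dusp4, Dusp11, Dusp10 and Ptpru span 6.37 to 69.8 kb. Among family genes of at least 100 kb, 6 of 19 were nearest to an inguinal peak, 31.6% (15.4 to 54.0%), beside 16.6% of all protein-coding genes of that length. The perigonadal count was also 6 of 19, 31.6%, beside 32.6%. Among shorter family genes the counts were 3 of 42 inguinal, 7.14%, beside 4.85%, and 4 of 42 perigonadal, 9.52%, beside 9.74%. The perigonadal shares were thus within about a point of those of all genes of like length. The inguinal shares were higher in both length classes, with the shares of all genes of like length inside their intervals. Counted as peaks per Mb of gene body, the family held 0.527 inguinal peaks (0.171 to 1.23), beside 0.931 over all protein-coding bodies, and 1.90 perigonadal peaks (1.12 to 3.0), beside 2.08. Without Ptprm the perigonadal value was 1.14 (0.545 to 2.09). At least 1 peak lay in the body of 4 of 61 family genes in inguinal fat, beside 4.11% of all protein-coding genes, and of 8 of 61 in perigonadal fat, 13.1%, beside 8.2%.

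**Figure D3:**
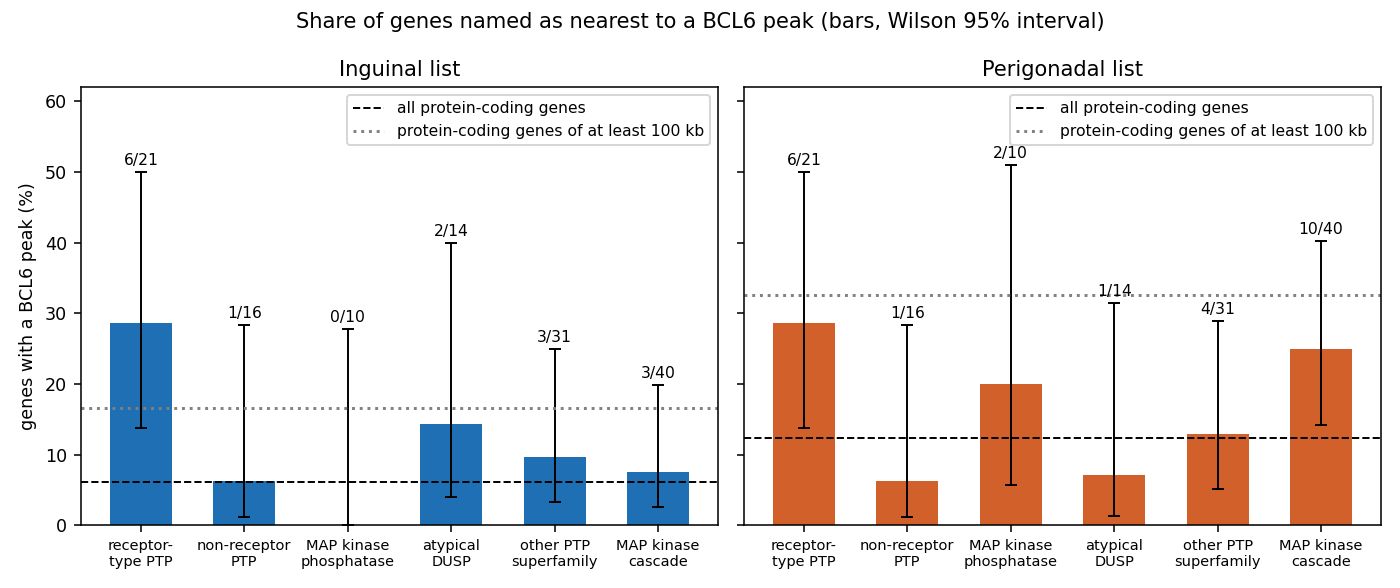
Share of genes (percent) nearest to a BCL6 peak at any distance for each class of phosphatase, a fixed list of 31 other superfamily genes and the MAP kinase cascade, with Wilson 95% intervals and gene counts above the bars. Dashed lines give all protein-coding genes (6.15 and 12.3%) and dotted lines those of at least 100 kb (16.6 and 32.6%); receptor-type phosphatases stand at 28.6% in both lists and every interval is wide.

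Most member peaks rested on no more than 12 tags, as did most peaks of both lists. In inguinal fat 2 of 10 rested on more than 12 tags, 20% (5.67 to 51.0%), beside 41.3% of the list. In perigonadal fat 3 of 15 did, 20% (7.05 to 45.2%), beside 24.0%. The list shares lie inside these intervals. The members above 12 tags were the Ptpn4 and Ptprg sites in inguinal fat and those of Ptpn4, Ptprm and Dusp18 in perigonadal fat. The median member score was 8.27 beside a list median of 9.03 in inguinal fat and 8.82 beside 8.82 in perigonadal fat.

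The inguinal member peaks had a smaller median distance to the nearest promoter than the perigonadal ones, a difference that was not tested. In inguinal fat 8 of 10 lay within 50 kb of it, 80% (49 to 94.3%), beside 64.0% of all peaks, and in perigonadal fat 6 of 15, 40% (19.8 to 64.3%), beside 62.4%. The median distances were 22.6 and 70.8 kb, beside 29.2 and 31.0 kb over all peaks. All 4 perigonadal peaks given to Ptpru and the 2 given to Ptprd lay beyond 50 kb. The perigonadal interval treats such peaks of 1 gene as separate, and the median of 70.8 kb is that of a Ptpru peak. Within 1 kb lay 0 of 10 and 1 of 15, the Ptpra peak, beside 7.06% and 6.22%. Introns held 4 of 10 and 8 of 15 member peaks, beside 47.0% and 47.1%. LINE elements held 2 of 10, 20% (5.67 to 51.0%), and 2 of 15, 13.3% (3.74 to 37.9%), beside 6.5% and 6.75%. The list shares lie inside these intervals, and the Ptpn4 site is 1 of the 2 in each list.

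**Figure D4:**
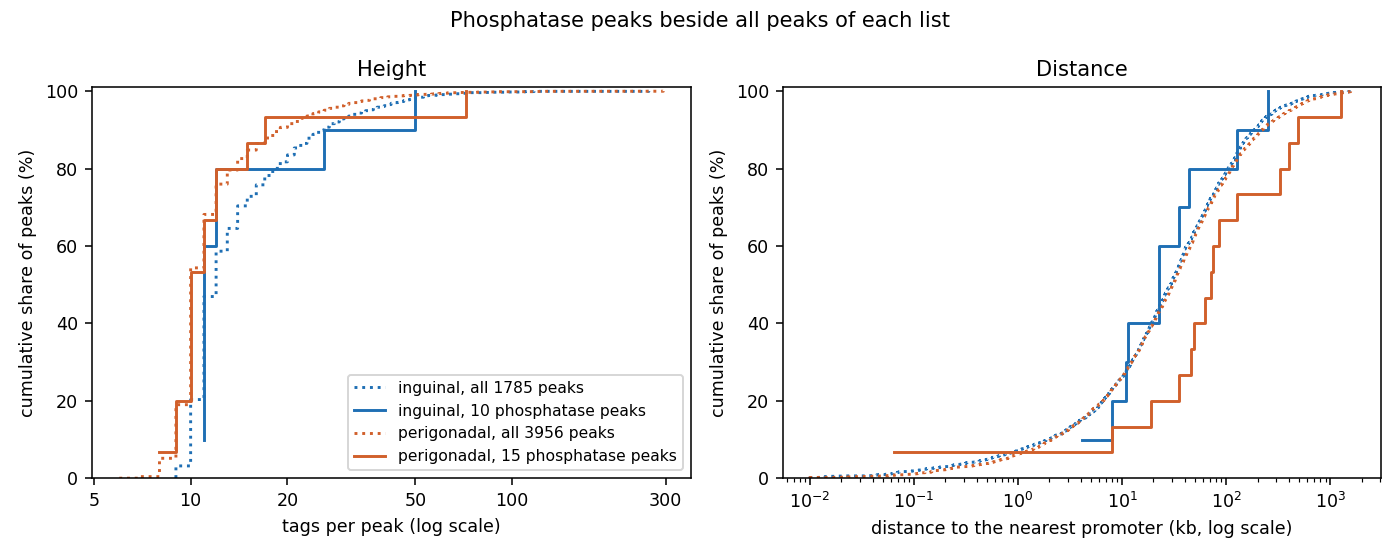
Cumulative share of peaks (percent) by tags per peak (left) and by distance to the nearest promoter in kb (right), both on log axes, for phosphatase peaks (solid) and all peaks (dotted) of each list. At the median the perigonadal phosphatase peaks lie to the right of all peaks in distance, at 70.8 against 31.0 kb. At the near end they do not, with 6.67% within 1 kb beside 6.22% of all peaks. The 1 member far to the right in height is the Ptpn4 site.

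The MAP kinases, which are substrates of dual-specificity phosphatases, and the kinases upstream of them had peaks for 3 of 40 genes in inguinal fat, 7.5% (2.58 to 19.9%), beside 6.15% of all protein-coding genes, and for 10 of 40 in perigonadal fat, 25% (14.2 to 40.2%), beside 12.3%. The median length of these 40 genes was 59.0 kb, beside 17.1 kb over all protein-coding genes. Their counts were not set beside those of genes of like length. Mapk14, the p38 alpha kinase, had the only shared site, in intron 2 of 12 about 4.50 kb after its promoter, with 11.3 in inguinal and 8.82 in perigonadal fat. The promoter of Mapk9, a JNK kinase, scored 10.5 (14 tags) in inguinal fat, and that of Braf, which starts the ERK cascade, 13.2 (15 tags) in perigonadal fat. A lower perigonadal peak on the promoter of Mapk7, the ERK5 kinase, scored 8.82 and is named to complete the kinase promoters.

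The promoters of the family were searched for sequence motifs in the windows of 300 bases in the RefSeq table, which held 66 promoters of 49 family genes. TTCNNNGAA occurred on either strand in 6 of the 66, 9.09%, beside 8.30% of all 32851 promoters. TTCCTAGAA and TTCCNGGAA, both special cases of it, occurred in 0 of the 66, beside 0.411% and 1.15%. Of the 6, Ptprj was the gene with a peak by name in these lists, and its peaks lay in intron 1, outside the window.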

How the data were processed

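The deposited files are 1 HOMER peak annotation per BCL6 library on mm10, per the file headers. Bowtie 1.2 and HOMER were used, per the submitters' processing notes. The inguinal header names a false discovery rate of 0.001 and the perigonadal header none, so calling limits may differ. The peak score, the distance to the promoter and the position class are the authors' values. The focus ratio, a fraction deposited by the authors for each peak, is given only as a description. Peaks overlapping by at least 1 bp counted as shared. Genes, lengths and promoter sequences came from RefSeq tables of GRCm38.p6, the assembly behind mm10, and the gene number of all 25 member peaks matched. A peak counted in a gene body when its centre lay between the gene's ends. No test was possible with 1 library per depot. Members, gene lists and alternatives were chosen with earlier results of these data known. Full values are given for shared, promoter and the 8 tallest member peaks of each list, except that peaks tied at the lowest such score (8.27 inguinal, 8.82 perigonadal) have their tags and interval given once. Of other lists the tallest are named. No genome was used, so peak sequences outside the promoter table are not shown. Python 3.11.15, pandas 2.3.3 and scipy 1.17.1 were used, and the counting was tested on simulated data. Library depth is unknown, since no source used here gives it. An item that the gene lists take in is not reported here by name.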

Additional observations from a re-analysis of the deposited data

How the results depend on the processing

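No paired analysis was possible because each depot had 1 library. Counts of phosphatase peaks, genes and shared peaks were recomputed 30 times under other settings, and 14 of these counts stayed within 1.5 times of those reported. With more than 12 tags there were 2 inguinal and 3 perigonadal phosphatase peaks, at 2 and 3 genes, with 1 shared perigonadal peak. With lists of equal length the perigonadal list held 7 phosphatase peaks at 6 genes, 1 of them shared. Within 50 kb of the promoter lay 6 perigonadal peaks at 6 genes, and within 10 kb 2 peaks at 2 genes in each list. Counting peaks inside gene bodies gave 5 inguinal peaks at 4 genes. Of alternatives chosen after seeing the data, more than 12 tags left 4 of the 8 Ptprm peaks, and equal lists 6. The cause of these shifts was not tested beyond the fewer peaks or genes that each rule admits. Most member peaks rest on 8 to 12 tags, which limits any statement on their absence from the other list.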

Other observations

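A fixed list of 31 other protein tyrosine phosphatase superfamily genes, which does not take in the whole superfamily, was also counted. Their peaks were no taller than the list medians of 9.03 (inguinal) and 8.82 (perigonadal). Of the 31 genes 3 were nearest to an inguinal peak, 9.68% (interval 3.35 to 24.9%), beside 6.15% of all protein-coding genes. For a perigonadal peak the count was 4, 12.9% (5.13 to 28.9%), beside 12.3%. In inguinal fat these were Rngtt, the mRNA capping enzyme gene, with 9.03, and the lipid phosphatase genes Mtmr3 and Mtmr6 with 8.27 and 7.52. In perigonadal fat Mtm1, Cdc14b and Tns2 scored 8.82 each and Ptp4a1, which lies 109.4 kb from its peak, 7.93. None of these peaks was shared. The focus ratio of the phosphatase peaks ran from 0.667 to 0.923 in inguinal fat, with a median of 0.812 equal to that of its list, and from 0.63 to 0.938 in perigonadal fat, with a median of 0.833, again that of the list.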
